A study of Mus musculus with 6 samples.

Results

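The 10 genes described here make up the NADPH supply and the peroxide defence of the mitochondrial matrix: Nnt, Idh2, Sod2, Prdx3, Prdx5, Gpx1, Gpx4, Txn2, Txnrd2 and Glrx2. They were chosen as a pathway list, with earlier results of these data known, and were read from every probe set whose only annotated gene symbol was one of them. Of the 10 genes, 9 were measured, by 10 probe sets (2 for Gpx4), out of 19938 genes with such a probe set; Prdx5 was not analysed here. The arrays were Affymetrix Gene 1.0 ST arrays, 1 for each of 6 whole hearts of mice aged 8 weeks. The 3 Ppif-/- hearts came from a global knockout, made on an Sv129 background and then crossed back to C57BL/6, and the 3 WT hearts came from C57BL/6 mice. All 6 hearts are labelled C57BL/6, with no J or N substrain, and the sources used here do not say whether the WT mice were littermates. The series asks which transcripts differ before the heart muscle fails.

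Respiration leaks electrons to oxygen in the matrix, and the resulting superoxide is turned into hydrogen peroxide by Sod2. The peroxide is reduced by peroxiredoxins, which are recharged through thioredoxin 2 and its reductase, and by glutathione peroxidases, which use glutathione. Both chains draw their electrons from NADPH, which the heart's mitochondria make mainly through Nnt and Idh2. Ppif encodes cyclophilin D, a matrix isomerase that favours opening of the permeability transition pore, and oxidant stress is a classical trigger of that pore. The C57BL/6J substrain carries a deletion of several Nnt exons, which makes the transcript of interest in any strain that was crossed to C57BL/6.

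Values are deposited log2 expression per probe set, between 1.91 and 14.63, so that a difference of 1 is a doubling. Ppif itself stood at 6.00, 6.25 and 6.44 in the Ppif-/- hearts and at 11.44, 11.28 and 11.49 in the WT hearts, a difference of -5.17 ± 0.12. The level of background is not known, so the size of that difference is not read as a fold. Cardiomyocyte markers other than Myl7 (4.86 to 5.28) were high in every heart. The list means lay between 12.47 and 12.53, and 0 of 8 markers passed the test between genotypes described below. One array stood apart in the wider redox genes: WT heart 2 exceeded each of the other 5 hearts by at least 0.3 in 2.02% of tested probe sets, the highest such share of the 6 hearts. For the matrix and redox lists, the main results that it moves are given with and without it. The number of arrays, 3 per genotype, limits the precision of all values, and in whole hearts fewer cells of a type and less RNA per cell cannot be told apart.

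Transcripts of matrix peroxide defence lay at nearly the same level in Ppif-/- and WT hearts. None of the 10 probe sets passed limma's test at an adjusted p of 0.05, where 1.09% of the 23410 tested probe sets did (0.624% higher and 0.461% lower). At an unadjusted p under 0.05 there were 2, Nnt and Glrx2, both lower in Ppif-/- hearts, beside 12.9% of all tested probe sets (6.1% higher and 6.81% lower). Without WT heart 2 there was 1, Nnt, beside 11.4% of all tested probe sets. In 3 of the 10 the hearts of the genotypes did not overlap, 2 lower and 1 higher, beside 19.8% of all tested probe sets (10.6% lower and 9.21% higher). The median difference, Ppif-/- minus WT, was -0.01 over the 10 probe sets and -0.00 over all tested ones. Without WT heart 2 these medians were -0.04 and -0.00. Of the 10 differences, 6 were smaller than 0.05 on the log2 scale.

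**Figure D1:**
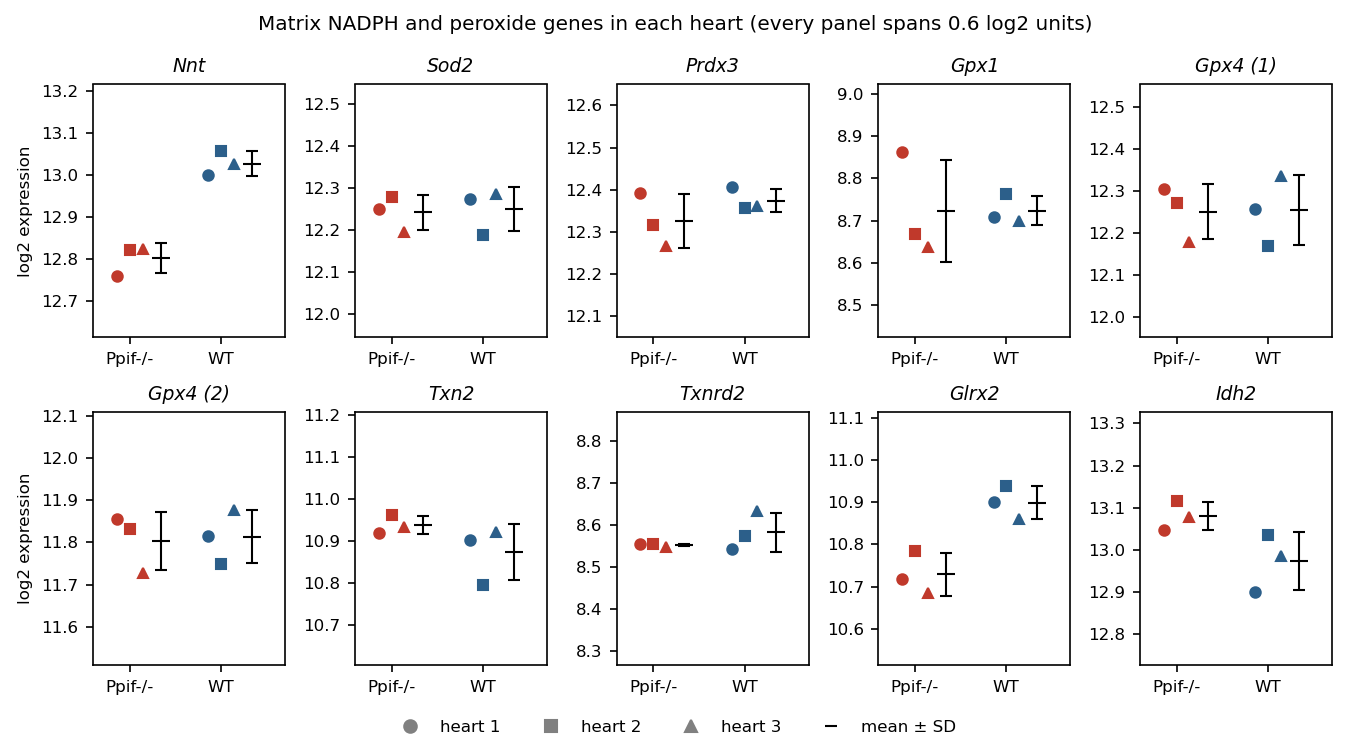
Log2 expression of the 10 probe sets in each of the 6 hearts, with red points for Ppif-/- and blue points for WT hearts, marker shapes for the heart number, and black bars for mean ± SD (n = 3). Gpx4 (1) and (2) are its 2 probe sets. Only Nnt, Glrx2 and Idh2 have all red points on one side of all blue points.

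Sod2 encodes the manganese superoxide dismutase, the enzyme that turns matrix superoxide into peroxide. It read 12.25, 12.28 and 12.20 in Ppif-/- hearts and 12.27, 12.19 and 12.29 in WT hearts. The genotypes overlapped over their whole range, and the lowest and the highest heart were both WT. The difference was -0.01 ± 0.07 (SE), with a 95% interval from -0.16 to 0.15, so these arrays bound a change of Sod2 to between 0.894 and 1.11 times the WT level.

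Prdx3 is the peroxiredoxin confined to mitochondria and removes much of the matrix peroxide. Its level was 12.39, 12.32 and 12.27 in Ppif-/- hearts against 12.41, 12.36 and 12.36 in WT hearts. Ppif-/- hearts 2 and 3 lay below all WT hearts and Ppif-/- heart 1 lay among them. The difference of -0.05 ± 0.07 did not pass (limma adjusted p = 0.824).

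Gpx1 and Gpx4 are selenium-dependent glutathione peroxidases, both present in mitochondria as well as in the cytosol; Gpx4 is the one that reduces lipid peroxides within membranes. Gpx1 stood at 8.86, 8.67 and 8.64 in Ppif-/- hearts and 8.71, 8.76 and 8.70 in WT hearts. Ppif-/- heart 1 was the highest of all and Ppif-/- heart 3 the lowest, and the SD among the 3 Ppif-/- hearts, 0.12, was the largest within a genotype among the 10 probe sets. The means differed by -0.0007 ± 0.08. The first Gpx4 probe set read 12.30, 12.27 and 12.18 against 12.26, 12.17 and 12.34, and the second 11.86, 11.83 and 11.73 against 11.82, 11.75 and 11.88, Ppif-/- before WT. The 2 probe sets carry the same annotated transcripts, so they are repeat readings of 1 gene rather than 2 results. Both placed WT heart 3 highest, with Ppif-/- heart 3 and WT heart 2 as the 2 lowest, and their differences were -0.00 ± 0.07 and -0.01 ± 0.07. The annotation does not separate the mitochondrial, cytosolic and nuclear forms of Gpx4.

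Txn2 and Txnrd2 are mitochondrial thioredoxin and the selenium-dependent reductase that feeds it electrons from NADPH. Txn2 read 10.92, 10.96 and 10.93 in Ppif-/- hearts and 10.90, 10.80 and 10.92 in WT hearts. WT heart 2 was the lowest, and WT heart 3 lay just inside the Ppif-/- range. The difference of 0.06 ± 0.07 was 0.03 ± 0.07 without WT heart 2, and passed in neither fit (limma adjusted p = 0.754 and 0.933). Txnrd2 stood at 8.56, 8.55 and 8.55 against 8.54, 8.57 and 8.63, a difference of -0.03 ± 0.06. The 3 Ppif-/- hearts were nearly identical (SD 0.0035), the smallest spread in the list.

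Glrx2 is the glutaredoxin of mitochondria, which removes glutathione from protein thiols. It read 10.72, 10.78 and 10.68 in Ppif-/- hearts and 10.90, 10.94 and 10.86 in WT hearts. Each Ppif-/- heart was below each WT heart, with a gap of 0.08 between the nearest pair. The difference was -0.17 ± 0.07 (95% interval -0.32 to -0.02, 1.13-fold lower), which did not pass over all tested probe sets (limma adjusted p = 0.325). Without WT heart 2 it was -0.15 ± 0.07 (limma unadjusted p = 0.0724, adjusted p = 0.492).

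Idh2, the NADP-dependent isocitrate dehydrogenase of the matrix, lay in the other direction. Its level was 13.05, 13.11 and 13.08 in Ppif-/- hearts and 12.90, 13.04 and 12.99 in WT hearts. The genotypes were apart by 0.01, less than the SD within either group. The difference was 0.11 ± 0.07 (95% interval -0.05 to 0.26, limma adjusted p = 0.563).

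Nnt, the inner membrane transhydrogenase that uses the proton gradient to pass electrons from NADH to NADP, had the largest difference in size among the 10. It read 12.76, 12.82 and 12.82 in Ppif-/- hearts and 13.00, 13.06 and 13.03 in WT hearts. The genotypes were apart by 0.18, several times the SD within each group (0.04 in Ppif-/- and 0.03 in WT hearts). The difference was -0.22 ± 0.06 (95% interval -0.37 to -0.08), a 1.17-fold lower level, with an unadjusted p of 0.00766 that ranked 998 of 23410 in limma and did not pass after adjustment (adjusted p = 0.18). It passed in 1 of the 16 alternative fits, with a variance trend (adjusted p = 0.0177), and ranged from 0.0692 to 0.334 in the other 15. In all 6 hearts the probe set read between 12.76 and 13.06, in a table whose values end at 14.63. It gives 1 summarised value, and the exons that its probes cover were not given, so the deleted exons of the C57BL/6J allele were not read apart from the rest.

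**Figure D2:**
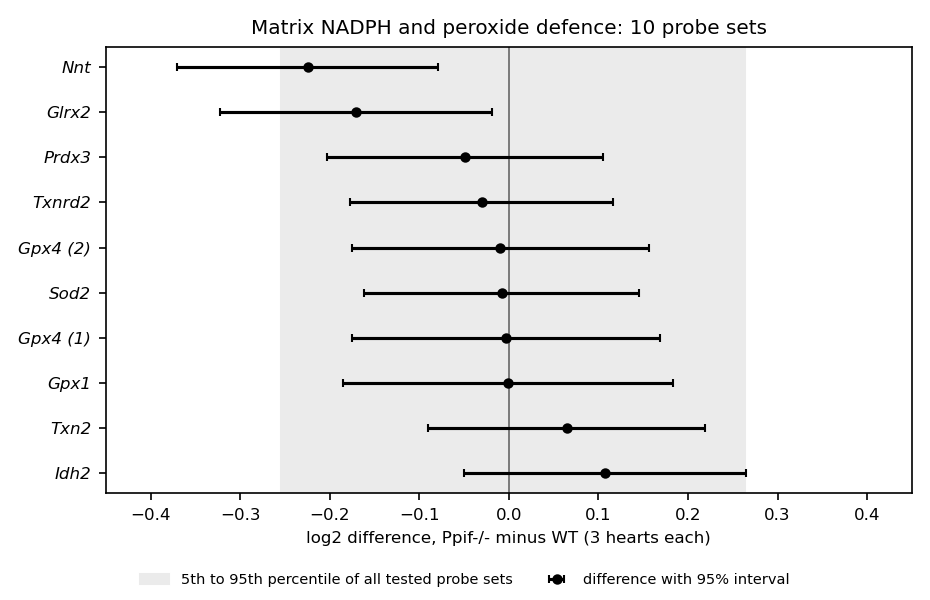
Log2 difference (Ppif-/- minus WT, 3 hearts each) of the 10 probe sets with its 95% interval from limma. The grey band spans the 5th to the 95th percentile of all tested probe sets, -0.25 to 0.26; all 10 differences lie inside it, and the intervals of Nnt and Glrx2 leave out 0.

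Intervals of the 10 probe sets reached no further than -0.37 and 0.26, and each extended 0.15 to 0.18 to either side of its difference. General mitochondrial genes (citrate synthase Cs, the porin Vdac1, respiratory subunits and others) served as a reference for mitochondrial content. Of these 10 genes, 0 passed at either threshold, and their median difference was 0.00, with a range from -0.07 to 0.05. Nnt and Glrx2 lay below that range and Idh2 and Txn2 above it. Without WT heart 2 the range was -0.13 to 0.09, with Nnt (-0.21) and Glrx2 (-0.15) below it, Idh2 (0.14) above it and Txn2 (0.03) inside it.

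Single markers of other cell types passed the adjusted test, 1 gene in each of 4 lists. Macrophage markers were above 0 in 6 of 7 genes, with list means of 7.98 to 8.16 in Ppif-/- and 7.84 to 7.87 in WT hearts. Cd68, a lysosomal protein of macrophages, passed (0.56 ± 0.09, limma adjusted p = 0.0394). The exception was Csf1r, lower in Ppif-/- hearts without overlap (-0.10 ± 0.06, limma adjusted p = 0.55). Smooth muscle and pericyte markers were below 0 in 5 of 6, with list means of 9.12 to 9.19 against 9.34 to 9.50, and the contractile gene Tagln passed (-0.51 ± 0.08, adjusted p = 0.0332). Rgs5 of the same list went the other way, higher in Ppif-/- hearts without overlap (0.27 ± 0.07, adjusted p = 0.129). In the fibroblast list the growth factor receptor Pdgfra passed (-0.44 ± 0.06, adjusted p = 0.0246) while 2 of 6 genes were above 0, and list means overlapped between 9.59 and 9.78. In the skeletal muscle list the light chain Myl1 passed (-1.44 ± 0.10, adjusted p = 0.000555), with 3 of 6 genes above 0 and list means of 6.61 to 6.67 against 6.80 to 6.89. The calls of Cd68, Tagln and Pdgfra were lost without any 1 heart (adjusted p = 0.0537 to 0.145), and that of Myl1 was kept (0.00146 to 0.00516). The endothelial, red blood cell, adipocyte and cardiomyocyte lists had 0 calls. The part of these cells in the values of Nnt and Glrx2 was not tested.

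Nnt lies on chromosome 13, and the genes beside it were read in the gene order of the mouse assembly GRCm38.p6. Of the 10 measured neighbours, 5 on each side, 2 fell in Ppif-/- hearts by the adjusted test and 0 rose, where 0.461% of all tested probe sets fell. They are the 2 nearest measured genes on one side. Paip1, which encodes a partner of the poly(A)-binding protein in translation, stood at 10.23, 10.26 and 10.23 in Ppif-/- hearts and 10.68, 10.67 and 10.59 in WT hearts (-0.41 ± 0.06, limma adjusted p = 0.0308). The transcript 4833420G17Rik read 6.91, 6.69 and 6.91 against 7.99, 8.19 and 7.87 (-1.18 ± 0.10, adjusted p = 0.00237), a 2.26-fold lower level. On the other side of Nnt, the growth factor Fgf10, read at low values, differed by -0.38 ± 0.10 and the mitochondrial ribosomal gene Mrps30 by -0.19 ± 0.07, neither past the adjusted test (0.143 and 0.317). Other neighbours lay higher in Ppif-/- hearts, among them Tmem267 (0.44 ± 0.18, adjusted p = 0.364) and Parp8 (0.18 ± 0.09, adjusted p = 0.437). In 6 of the 10 neighbours the genotypes did not overlap, with Parp8 the 1 that was higher, beside 19.8% of all tested probe sets. The call of 4833420G17Rik held without any 1 heart (adjusted p = 0.00704 to 0.0163), and that of Paip1 was lost without any 1 of the 6 (0.0823 to 0.13) and with the unannotated probe sets added to the test (0.0846).

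Wider windows were added after these values were seen. With 10 genes on each side, 3 of 20 fell and 0 rose, the third being the zinc finger gene Zfp131 (-0.45 ± 0.07, limma adjusted p = 0.0299), whose call was also lost without any 1 heart (0.0667 to 0.119). With 20 on each side, of which 32 were measured before the end of the chromosome, the count stayed at 3. For the other measured genes of the list, 5 neighbours on each side held 0 calls around Sod2, Prdx3, Gpx1, Gpx4, Txn2, Txnrd2 and Idh2. With 10 on each side, 1 of the 20 genes around Idh2 rose, Hddc3 (1.60 ± 0.11, adjusted p = 0.000615), a smaller p than any beside Nnt, and its call was kept without any 1 heart (0.00163 to 0.0058). With 20 on each side, 1 of 25 around Prdx3 rose, Hspa12a (0.72 ± 0.12, adjusted p = 0.0413), which was lost without any 1 heart (0.0503 to 0.137). Around Glrx2, on chromosome 1, 2 of the 10 neighbours passed with 5 on each side, and the same 2 in both wider windows. They were the potassium channel Kcnt2 (-0.59 ± 0.10, adjusted p = 0.0413) and the G protein regulator Rgs2 (0.78 ± 0.11, adjusted p = 0.0209), in opposite directions. Without 1 heart, Kcnt2 ranged from 0.0299 to 0.155 and passed only without WT heart 3, and Rgs2 ranged from 0.0213 to 0.103 and passed only without Ppif-/- heart 1 or WT heart 3. The alleles that each genotype carries at Nnt and at Glrx2 were not tested.

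**Figure D3:**
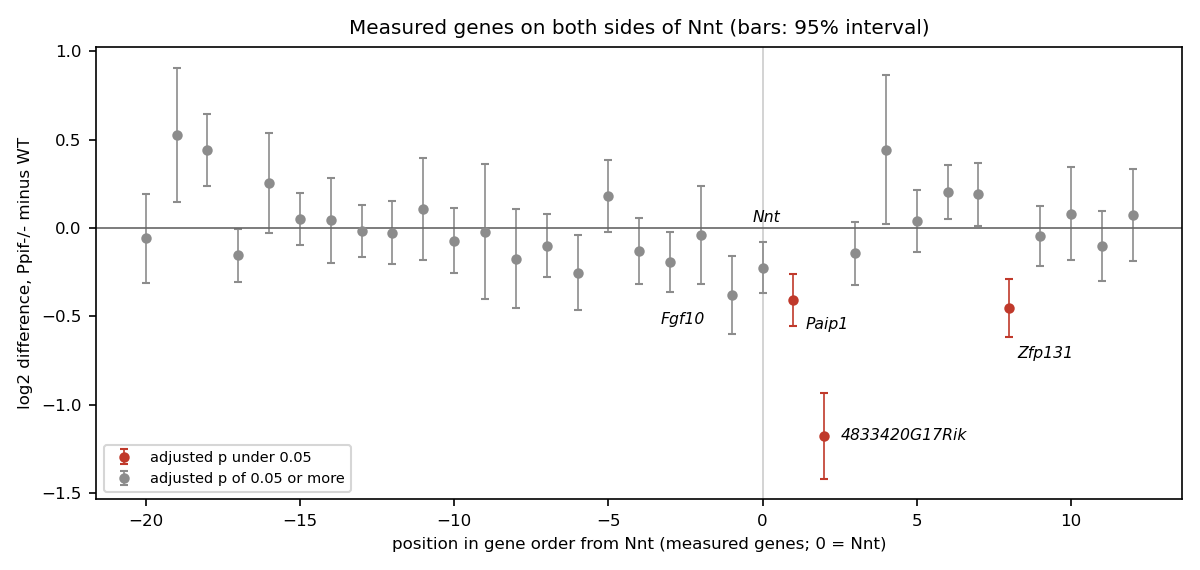
Log2 difference (Ppif-/- minus WT, 3 hearts each) with 95% interval for 33 measured genes of chromosome 13, placed by their order from Nnt, which is at 0. Paip1, 4833420G17Rik and Zfp131, in red, are the genes with an adjusted p under 0.05, and Nnt at -0.22 lies between Fgf10 and Paip1.

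Genes whose profile over the 6 hearts was nearest to that of Nnt were found by the root mean square distance of log2 values, each gene centred on its own mean. The nearest was Cpt2, the carnitine palmitoyltransferase of the inner membrane (distance 0.0156), followed by Ralgapb (0.0186), Pik3r4 (0.0206), Plet1 (0.0217) and Fam32a (0.0223). Their differences between genotypes were -0.22, -0.23, -0.22, -0.21 and -0.22, and 0 of these 5 passed the adjusted test (0.152 to 0.233). Each was selected for its likeness to Nnt over these same hearts, so the values are a description.

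Promoter sequences of RefSeq, on GRCm38.p6, were searched for the core of the antioxidant response element, the site of the stress regulator NRF2 (TGACNNNGC, both strands), and for the GC box bound by SP1-type factors (GGGCGG, both strands). Windows run from 250 bases before to 50 bases after a start site. There were 15 windows for 9 of the 10 genes, Prdx5 included, and Nnt had none. The response element core was in 0 of the 15 windows and in 12.4% of all 32851 windows, and a GC box was in 12 of 15 and in 35.7% of all. Some windows of Glrx2 and of Gpx4 overlap and hold the same GC boxes, so the 15 are not separate readings. These matches describe letters, not bound sites. The windows of Glrx2 and Idh2 are printed because they are the genes besides Nnt whose genotypes did not overlap, and that of Sod2 because it holds the most GC boxes, 4. Capitals mark GC boxes, on either strand, and the Glrx2 window is 1 of its 4.
Glrx2, chr1:143739318-143739617, plus strand: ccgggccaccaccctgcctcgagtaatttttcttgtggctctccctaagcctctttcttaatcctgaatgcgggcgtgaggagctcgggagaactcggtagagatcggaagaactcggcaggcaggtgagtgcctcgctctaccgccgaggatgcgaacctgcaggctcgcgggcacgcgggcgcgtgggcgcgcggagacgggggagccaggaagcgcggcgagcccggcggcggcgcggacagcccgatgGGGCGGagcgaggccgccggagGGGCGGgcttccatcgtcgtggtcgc
Idh2, chr7:80115301-80115600, minus strand: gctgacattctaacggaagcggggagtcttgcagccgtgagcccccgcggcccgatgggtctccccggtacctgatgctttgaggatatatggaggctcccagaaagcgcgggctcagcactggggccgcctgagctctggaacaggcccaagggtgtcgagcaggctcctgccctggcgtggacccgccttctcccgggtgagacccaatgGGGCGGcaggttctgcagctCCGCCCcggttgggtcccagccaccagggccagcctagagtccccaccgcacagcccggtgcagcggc
Sod2, chr17:13007589-13007888, plus strand: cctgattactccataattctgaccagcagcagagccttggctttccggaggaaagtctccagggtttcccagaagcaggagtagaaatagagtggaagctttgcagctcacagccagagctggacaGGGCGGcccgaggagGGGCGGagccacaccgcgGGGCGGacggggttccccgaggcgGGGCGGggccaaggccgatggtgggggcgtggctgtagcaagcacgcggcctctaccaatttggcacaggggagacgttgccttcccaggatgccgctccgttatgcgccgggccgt

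The rest of the redox network was read from 8 further lists. They include the 10 general mitochondrial genes used above as a reference, of which 0 passed either threshold. Of the 73 measured genes in the 8 lists, 0 passed limma's adjusted test (smallest adjusted p = 0.212), and the median difference was -0.03. At an unadjusted p under 0.05, 4 were higher (5.48%) and 7 lower (9.59%), beside 6.1% and 6.81% of all tested probe sets. The same shares are the background of the counts by list that follow. For counts without WT heart 2 it is 11.4%, both directions together. Of these 11 genes, 4 also passed the looser threshold without WT heart 2, namely Aldh1l2, Me1, Sod3 and Nox4, and 7 did not. The 7 had unadjusted limma p-values of 0.056 to 0.147 in that fit, which is less precise because it holds fewer hearts. Among the 7, the difference of Mthfd1l went from 0.28 to 0.26 and that of Idh1 from -0.30 to -0.18. The effect of fewer hearts was not separated from that of WT heart 2. Among other mitochondrial NADPH enzymes, 2 of 9 were higher at that looser threshold and 0 lower. These were Aldh1l2, which makes NADPH in the oxidation of formyl-tetrahydrofolate (6.55, 6.75 and 6.77 against 6.49, 6.25 and 6.44), and the folate enzyme Mthfd1l (6.07, 5.99 and 6.33 against 5.89, 5.81 and 5.85). In both, each Ppif-/- heart was above each WT heart, by differences of 0.30 ± 0.10 and 0.28 ± 0.10 that did not pass after adjustment (0.239 and 0.275). The list median was 0.03. Without WT heart 2 the median was 0.10 and the count of higher genes 1 (Aldh1l2).

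Of 6 measured cytosolic NADPH enzymes, 0 were higher and 2 lower at an unadjusted p under 0.05, with a list median of -0.15. The median was -0.08 and the count 1 (Me1) without WT heart 2. Malic enzyme Me1 read 11.46, 11.41 and 11.32 in Ppif-/- and 11.61, 11.59 and 11.64 in WT hearts (-0.22 ± 0.07, limma adjusted p = 0.225), without overlap. Idh1, the cytosolic counterpart of Idh2, differed by -0.30 ± 0.13 (adjusted p = 0.379) and by -0.18 ± 0.11 without WT heart 2. Of 15 enzymes against peroxide and superoxide outside the matrix, the extracellular dismutase Sod3 was lower at the looser threshold (-0.27 ± 0.08) and Gpx8 of the endoplasmic reticulum higher (0.19 ± 0.07), with a list median of -0.03. Without WT heart 2, Sod3 stayed past that threshold and Gpx8 did not.

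Among 12 genes of glutathione synthesis, recycling and import, 11 had a difference below 0 and the list median was -0.12. Leaving out WT heart 2 gave 10 genes and -0.07, and 0 genes past the looser threshold. The dicarboxylate carrier Slc25a10 was higher at the looser threshold (0.25 ± 0.09) and glutathione reductase Gsr lower (-0.22 ± 0.09). Of 7 sources of mitochondrial superoxide and peroxide, 3 were lower and 0 higher at the looser threshold, with a list median of -0.17. The count was 1 (Nox4) and the median -0.15 without WT heart 2. They were the oxidase Nox4, from low values (4.85, 4.62 and 4.55 against 4.93, 5.08 and 4.96), the reductase Cyb5r3 (-0.17 ± 0.06) and monoamine oxidase Maoa (-0.21 ± 0.09). The selenoprotein synthesis factors, on which Gpx1, Gpx4 and Txnrd2 depend, had 0 of 7 genes past either threshold and a median of -0.04 (-0.01 without WT heart 2); the smallest p belonged to Sepsecs (-0.14) and Secisbp2 (0.13). Repair and iron-sulphur genes likewise had 0 of 7 past either threshold, with a median of 0.08 (0.03 without WT heart 2) and the methionine sulphoxide reductases Msrb2 at -0.15 and Msra at 0.12.

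**Figure D4:**
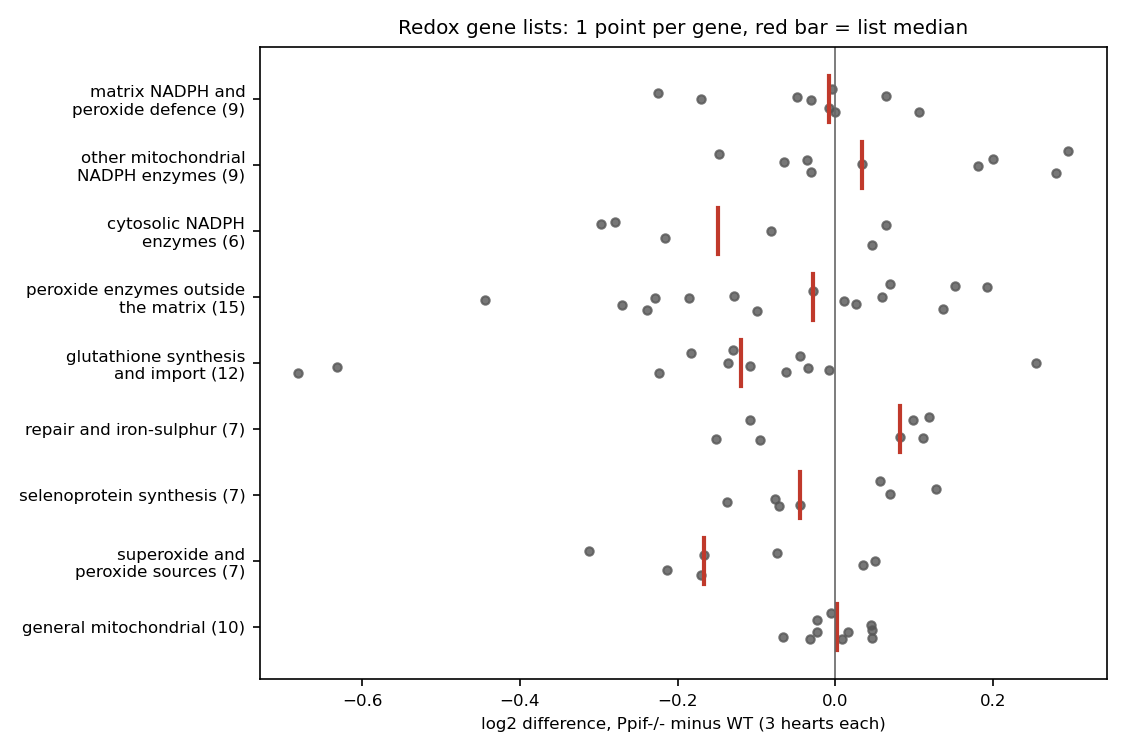
Log2 differences (Ppif-/- minus WT, 3 hearts each) of the genes in the 9 lists, the general mitochondrial reference among them. Each gene is 1 point, with the list median as a red bar and the number of measured genes in brackets. Medians lie between -0.17 and 0.08, and 0 genes passed the adjusted test.

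One WT heart stood far above the rest for several redox genes outside the matrix list. In WT heart 2, 8 of the 73 genes in the 8 further lists (11%) exceeded every other heart by at least 0.3. The count was 1 (1.37%) in Ppif-/- heart 1 and 0 in each of the remaining 4 hearts. Over all tested probe sets the shares were 2.02% in WT heart 2, 1.44% in Ppif-/- heart 1 and 0.192% to 0.816% in the remaining hearts. The 8 were chosen by that gap, after their values were seen. Gclm, the regulatory subunit of the first enzyme of glutathione synthesis, read 10.54 in WT heart 2 and 8.76 and 8.79 in the other WT hearts, 3.41-fold higher in WT heart 2 than in their mean. Mgst1, a membrane glutathione transferase, stood at 10.39 against 9.06 and 8.93, and Srxn1, the sulfiredoxin that repairs peroxiredoxins, at 8.57 against 7.61 and 7.67. The plasma peroxidase Gpx3, Aldh1l1, catalase (Cat), Txnrd1 and Idh1 made up the remainder, between 1.28-fold and 1.89-fold higher in that heart. Without WT heart 2 the difference between genotypes went from -0.63 ± 0.43 to -0.04 ± 0.10 for Gclm, from -0.68 ± 0.36 to -0.21 ± 0.16 for Mgst1 and from -0.44 ± 0.24 to -0.13 ± 0.10 for Srxn1. With that heart left out, 1 of the 73 genes was higher and 3 lower at an unadjusted p under 0.05. In that fit 11.4% of all tested probe sets were past this threshold, both directions together. In limma's adjusted test, 0 of the 73 passed.

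The matrix genes showed no such rise in that heart. WT heart 2 differed from the mean of the other 2 WT hearts by -0.13 and -0.10 for the Gpx4 probe sets, -0.12 for Txn2, -0.09 for Sod2, -0.03 for Prdx3 and -0.01 for Txnrd2. It lay above them by 0.05 for Nnt, 0.06 for Gpx1 and Glrx2, and 0.09 for Idh2. WT heart 2 exceeded all other hearts by 0.3 or more in 0 of the 10 probe sets, beside 2.02% of all tested probe sets. At that share, a count of 0 among 10 does not set the matrix genes apart. Txnrd2 and Txnrd1, the mitochondrial and cytosolic thioredoxin reductases, differed in that heart by -0.01 and 0.44 from the other WT hearts. Txnrd1 was among the genes chosen for their gap in WT heart 2, so the contrast is a description.

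**Figure D5:**
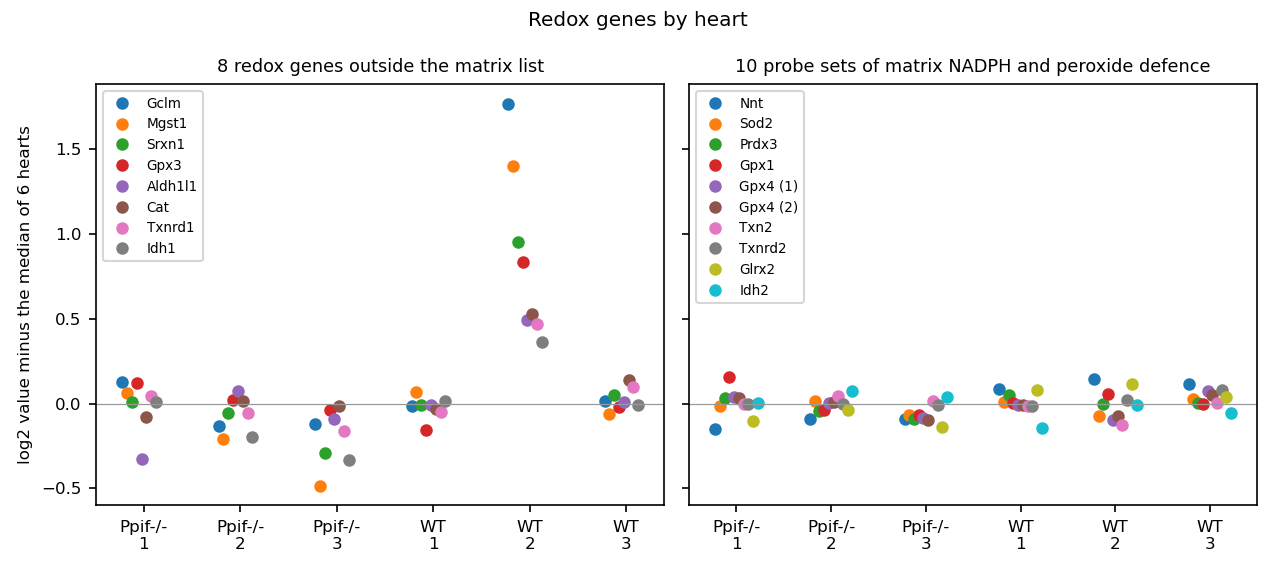
Log2 value minus the median of the 6 hearts for the 8 redox genes with a gap of at least 0.3 in WT heart 2 (left) and for the 10 probe sets of the matrix list (right), 1 colour per gene, hearts on the horizontal axis. Gclm and Mgst1 stand highest on the left at WT heart 2, and the points on the right stay close to 0 in all hearts.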

How the data were processed

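One array was hybridised per heart. Per the submitters' processing notes the authors used RMA, and the deposited unit is a log2 value for each probe set. The software behind RMA and the genome build were not stated. RMA narrows differences of dim probe sets. Nothing was rescaled. Of 35557 probe sets, 21789 carried 1 symbol, 1621 several and 12147 none, and 21698 of the first matched a RefSeq gene table (GRCm38.p6) by Entrez identifier.

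Genotypes were compared over the 23410 probe sets with a symbol in limma (version 3.58.1, R 4.3.3) with lmFit and eBayes, 2-sided, without covariates, and p-values were adjusted by Benjamini-Hochberg. Errors are standard errors of the fit. With 3 hearts on each side, the smallest p of an exact permutation test is 0.1. P-values and standard errors rest on the spread between these hearts, which eBayes pulls toward the spread typical of all tested probe sets. Outside the 10 genes, a gene was represented by its brightest probe set, and for each list the text names up to 4 genes past the adjusted test, or else the 2 with the smallest p. Neighbours of Nnt and cell markers were to be given as counts; those named, Maoa, the neighbours of the other listed genes and the genes high in WT heart 2 were chosen after their values were seen. Genes and lists were chosen with earlier results of these data known. Heart numbers were not treated as pairs. Correlations of deviations were -0.08, -0.06 and 0.12 for hearts of the same number and -0.133 to 0.163 for the others. With 3 hearts per genotype, these values cannot tell whether the numbers pair the samples. The procedure was tested on simulated arrays. Alternatives were a block, filters, probe set choices, scalings, variance models, array weights and leaving out each heart. Some listed genes were not analysed here.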

Additional observations from a re-analysis of the deposited data

How the results depend on the processing

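Over all tested probe sets, 254 passed the adjusted test. The count was 160 with the replicate number as a block, 405 on brighter probe sets, 131 with unannotated probe sets added, 386 with array weights, 453 under a variance trend, and 131 to 171 when 1 heart was left out. The cause was not tested, beyond the fewer hearts or other probe sets that a setting holds. Among the 10 probe sets of the matrix list the count past the adjusted test was 0, and 1 (Nnt) with a variance trend. The count at an unadjusted p under 0.05 was 2, 1 with the replicate block (Nnt, adjusted p = 0.299), 1 to 2 without 1 heart, and 3 under a variance trend (Idh2 in addition). The differences of Nnt (-0.24 to -0.20), Glrx2 (-0.20 to -0.15), Prdx3, Txn2, Txnrd2 and Idh2 kept their sign in all 16 alternatives. Those of Sod2, Gpx1 and Gpx4, near 0, changed sign in 2 to 4 of them and passed in none. The block also ended the calls of Paip1 (0.103), Zfp131 (0.103), Kcnt2 (0.0632), Rgs2 (0.0605), Hspa12a (0.112), Cd68 (0.098), Tagln (0.0887) and Pdgfra (0.0929). Adding unannotated probe sets ended those of Zfp131 (0.0901), Kcnt2 (0.13), Rgs2 (0.084), Hspa12a (0.134), Cd68 (0.124), Tagln (0.104) and Pdgfra (0.0727). Centring arrays on their medians moved the median of all tested probe sets to -0.02.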

Other observations

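Among the 6 hearts, Ppif-/- heart 3 was the lowest in 4 of the 10 probe sets of matrix peroxide defence and WT heart 3 the highest in 4. The mean deviation over the 10 probe sets was -0.05 in Ppif-/- heart 3, 0.04 in WT heart 3 and between -0.00 and 0.01 in the other 4 hearts. The general mitochondrial genes deviated by -0.06 in Ppif-/- heart 3 and 0.01 in WT heart 3.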
